A study of Caenorhabditis elegans with 2 samples.

Results

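The hedgehog-related and patched-related genes of Caenorhabditis elegans are 87 of the 19973 protein-coding genes on its nuclear chromosomes. Gene names define them: genes called wrt- (10 genes), grd- (16), grl- (31), ptr- (24) or ptc- (2), together with qua-1, hog-1, che-14 and ptd-2. Binding was measured by chromatin immunoprecipitation and sequencing (ChIP-seq) of PAX-3, a transcription factor of the Pax family. There was 1 group of 2 biological replicates. Both were whole L1 larvae of mixed sex from strain OP190 (unc-119(ed3) III, with the insertion wgIs190), aged 6 hours and starved after bleaching. The line carries PAX-3 fused at its C terminus to GFP and FLAG, and the immunoprecipitation used an antibody to GFP. Chromatin was sonicated to 200 to 800 bp. All larvae came from 1 transgenic line, so the binding measured is that of the tagged protein in that line. No tissue was separated, so strong binding in a few cells and weak binding in many cannot be told apart.

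In flies and vertebrates, secreted Hedgehog proteins bind Patched, a membrane protein with a sterol-sensing domain, and Dispatched releases the lipid-modified ligand from the cells that make it. Nematodes lack a clear Hedgehog ligand and Smoothened, but they have large families that share domains with the pathway. The warthog (wrt), groundhog (grd), ground-like (grl), quahog (qua-1) and hog-1 genes encode secreted proteins with a Hedgehog-type processing domain or with the nematode-specific domains found beside it. The ptc and ptr genes encode Patched-like membrane proteins. Many of these genes are known for roles in the epidermis, in the cuticle and in molting.

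Each gene's promoter window began 1000 bp before its annotated start and ended 200 bp after it. The sequences below are the DNA under the member peaks on which the results turn, each centred on the summit of a peak in the list pooled over both replicates and read on the strand of its gene. They come from the RefSeq copy of build ce11. A single capital marks the summit base, and a run of capitals marks a match to a motif described with the motif results. The first is the 1 peak of the authors' IDR list (peaks kept for their reproducibility between replicates) whose summit fell in a member window, at chrV:15337476-15337541, minus strand. It is cut short so that little of the noncoding exon is shown. The next 6 are peaks found by both replicates, from 6 of the 7 genes with such a peak (that of ptr-2 is not shown), at chrV:15337700-15337799 (minus), chrIV:3440161-3440260 (plus), chrV:6733058-6733157 (minus), chrV:20356093-20356192 (plus), chrII:10888829-10888928 (plus) and chrIV:4051605-4051704 (minus). The last, at chrV:6969994-6970093 (minus) and chrV:4414875-4414974 (minus), are shown for their motif matches.
wrt-7, IDR peak: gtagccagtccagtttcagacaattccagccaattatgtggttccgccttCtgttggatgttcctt
wrt-7, upstream peak: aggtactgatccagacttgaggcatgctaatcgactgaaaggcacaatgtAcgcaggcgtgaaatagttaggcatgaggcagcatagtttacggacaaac
grd-10: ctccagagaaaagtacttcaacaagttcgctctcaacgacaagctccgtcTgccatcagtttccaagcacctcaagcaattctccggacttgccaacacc
grl-8: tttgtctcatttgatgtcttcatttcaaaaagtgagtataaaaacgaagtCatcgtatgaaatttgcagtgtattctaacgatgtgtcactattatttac
grd-11: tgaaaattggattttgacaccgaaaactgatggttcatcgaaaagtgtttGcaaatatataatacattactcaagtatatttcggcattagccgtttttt
ptr-8: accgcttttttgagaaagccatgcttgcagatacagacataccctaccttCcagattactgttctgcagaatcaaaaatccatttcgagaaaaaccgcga
wrt-5: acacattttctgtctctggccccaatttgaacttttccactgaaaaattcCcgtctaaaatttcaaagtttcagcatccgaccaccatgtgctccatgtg
ptr-15: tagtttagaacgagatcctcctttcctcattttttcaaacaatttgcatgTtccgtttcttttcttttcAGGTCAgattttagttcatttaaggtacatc
grl-5: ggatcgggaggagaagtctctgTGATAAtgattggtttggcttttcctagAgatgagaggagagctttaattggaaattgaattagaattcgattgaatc

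The files gave peak lists, not read counts, so the depth behind each value is unknown. The IDR list held 2139 peaks, all of them at the top of the pooled list by signal. The pooled list and the 2 replicate lists held 30000 peaks each and are called relaxed here, because they reach down to background: the median −log10 q-value was 0.164 in the pooled list, 0.182 in replicate 1 and 0.171 in replicate 2. Peak signal and −log10 q are the authors' values, and they were used only to describe and rank peaks within a list, since the scale differs between lists.

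PAX-3 peaks of the IDR list were rare at these promoters, whereas weak peaks were about as frequent there as over all genes. Of the 87 genes, 1 had an IDR summit in its window, which is 1.15% (95% Wilson interval 0.203 to 6.23), beside 6.99% of all protein-coding genes. In the pooled relaxed list 30 of 87 had a summit, 34.5% (25.3 to 44.9) beside 36.7% of all genes. Replicate 1 gave 35 of 87, 40.2% (30.6 to 50.7) beside 36.7%, and replicate 2 gave 28 of 87, 32.2% (23.3 to 42.6) beside 37.5%. The share in the full relaxed lists thus lay on either side of that of all genes, higher in replicate 1 and lower in replicate 2. Summits of both replicates within 100 bp of each other, both in the window, were found for 7 of 87 genes, 8.05% (3.95 to 15.7), beside 16.9% of all genes. When a summit of each replicate anywhere in the window was enough, the count was 18 of 87, 20.7% beside 23.1%. The low share was therefore seen among IDR peaks and, in these windows, among peaks placed alike by both replicates, and not in the relaxed lists as a whole. The replicated share depended on the window and the hit rule. The ratio of the members' share to that of all genes was 0.476 as given, 0.793 with 2000 bp upstream (17 members) and 0.808 when peaks had only to overlap (18 members). Intervals cover counting error only, genes are not independent of each other, and the difference between the members and all genes was not tested.

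**Figure D1:**
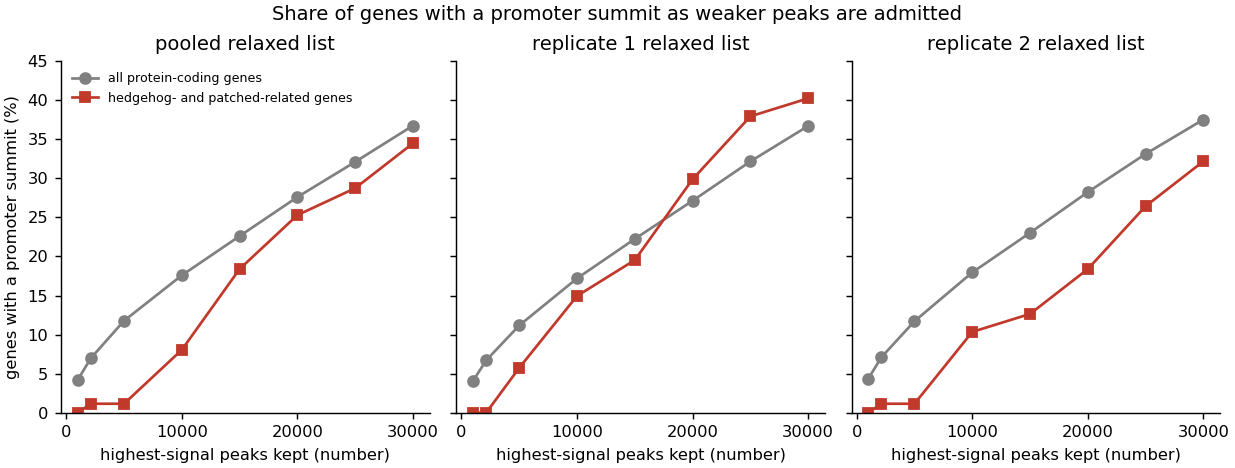
Share of genes (%) with a summit in the promoter window against the number of highest-signal peaks kept from each relaxed list, for all 19973 protein-coding genes (grey circles) and the 87 hedgehog- and patched-related genes (red squares). With few peaks kept the red points lie at or near 0 in every list, and with all 30000 they lie at 34.5% against 36.7% (pooled), 40.2% against 36.7% (replicate 1) and 32.2% against 37.5% (replicate 2).

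Keeping only the stronger peaks of each list showed at what signal the members appeared. Among the 1000 strongest pooled peaks no member had a summit (0 of 87, which allows a share of up to 3.45%), beside 4.22% of all genes. Among the 5000 strongest it was still 1 of 87, 1.15% beside 11.8%, and among the 10000 strongest it was 7 of 87, 8.05% beside 17.6%. From there the members caught up, with 18.4% beside 22.6% at 15000 peaks and 25.3% beside 27.6% at 20000. The pooled peaks ranked 10001 to 20000 held the strongest summit of 15 of the 30 members with a summit, 50% beside 27.3% of all genes with a summit.

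The replicates shared the lack of strong peaks and differed below that level. Among the 2139 strongest peaks, replicate 1 had a summit at 0 of 87 members (up to 3.45%), beside 6.70% of all genes, and replicate 2 at 1 of 87, 1.15% beside 7.10%. Among the 10000 strongest, replicate 1 had 13 of 87, 14.9% beside 17.2%, and replicate 2 had 9 of 87, 10.3% beside 18.0%. Replicate 1 passed the share of all genes at 20000 peaks, 29.9% beside 27.1%, and replicate 2 stayed under it there, 18.4% beside 28.2%. The median of the highest signal per window, over windows with a summit, was 54.9 for members and 60.2 for all genes in the pooled list. It was 29.9 and 33.8 in replicate 1, and 27.1 and 32.7 in replicate 2. Members were below the median of all genes in each list.

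**Figure D2:**
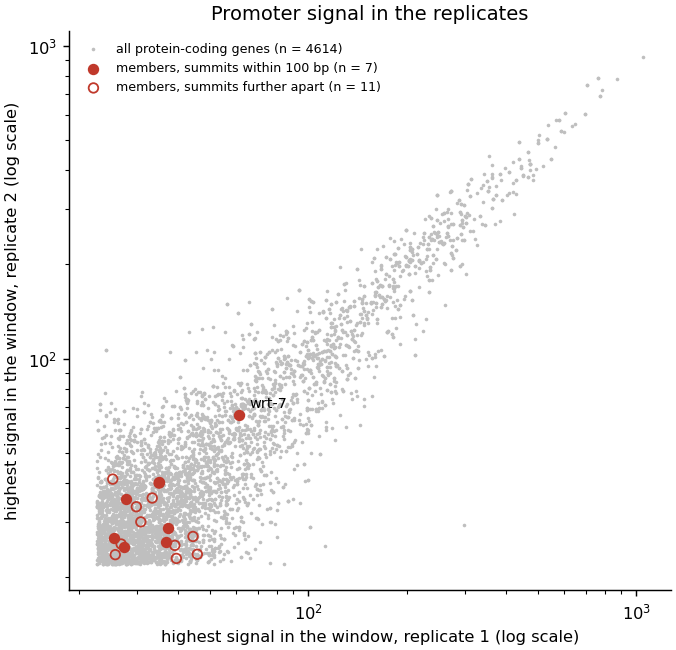
Highest signal in the promoter window in replicate 1 (x axis) and replicate 2 (y axis), both on log scales, for the 4614 genes with a summit of each replicate (grey) and the 18 members among them, filled red where the summits lay within 100 bp (7 genes) and open red where they lay further apart (11 genes). The members lie in the low corner, wrt-7 at 61.4 and 66.0 being the highest of them in both replicates.

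Of the 18 members with a summit of each replicate in the window, 7 had them within 100 bp, 38.9% beside 73.1% of all such genes (3375 of 4614). Of the 35 member windows with a replicate 1 summit, 7 had a replicate 2 summit within 100 bp, 20% beside 46.0% for all genes. Of the 28 with a replicate 2 summit it was 7, 25% beside 45.04%. Over all genes too, windows whose strongest summit was weak were replicated less often, and the members' peaks were weaker. The part of signal in the lower agreement was not tested. The next counts sort windows by the rank of their strongest summit, but the replicated pair may be another, weaker summit of the window. For ptr-2 the strongest replicate 1 summit ranked 8281, and the one in the pair ranked 26105. Where the strongest replicate 1 summit was among the top 10000, 4 of 13 member windows were replicated, 30.8% beside 70.2% for all genes. For replicate 2 it was 3 of 9, 33.3% beside 69.4%. Where the strongest replicate 1 summit ranked 10001 to 30000, 3 of 22 member windows were replicated, 13.6% beside 24.8% for all genes, and for replicate 2 it was 4 of 19, 21.1% beside 22.7%. The difference between windows in these weaker ranks was thus smaller than over all ranks. These counts do not show how often a strong peak itself was repeated. With both lists limited to their 10000 strongest peaks, 0 members were replicated (up to 3.45%), beside 10.01% of all genes. Across genes, the highest signals of the replicates had a Spearman correlation of −0.04 over the 18 members and 0.74 over all 4614 genes. Over the 2467 genes within the members' range of signal it was 0.29. These correlations share 1 pair of libraries and are given as a description.

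The warthog gene wrt-7 (WBGene00006953, chrV:15334754-15337505, minus strand, build ce11) was the 1 member with an IDR peak. The peak, at chrV:15337279-15337702, had its summit 14 bp downstream of the gene start, in a noncoding part of the exon of wrt-7, and in the window of no other gene. Its pooled signal was 136, rank 1693 of the IDR list, with −log10 q of 1.60, and the lowest signal in that list was 116.9. The signal was thus near the foot of the IDR list, where the median was 179. In replicate 1 the summit lay 20 bp downstream of the start with signal 61.4 (rank 2325). In replicate 2 the strongest summit lay 128 bp upstream with signal 66.0 (rank 1792). These lie over 100 bp apart, so this peak did not count as placed alike. A weaker pooled summit 244 bp upstream (signal 85.9, rank 3975) had both replicates within 100 bp of each other, at 245 bp upstream with signal 36.1 and at 330 bp upstream with signal 31.2. Thus wrt-7 was the highest member in every list.

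Among the other warthog genes, wrt-5, which is needed for hypodermal development in the embryo, had summits of both replicates at its start. Its pooled summit lay 15 bp upstream with signal 52.2, replicate 1 gave 25.5 at 15 bp upstream and replicate 2 gave 26.7 at 20 bp downstream. These values were close to the median member signal in the pooled list and below it in both replicates. For wrt-10, the pooled signal was 50.7 at 83 bp downstream, replicate 1 gave 42.5 at 122 bp upstream, and replicate 2 had no summit. The pooled summits of wrt-10 also lay in the window of the neighbouring gene ZK1290.13. For wrt-8, both replicates had a summit but the pooled list did not: replicate 1 gave 44.4 at 531 bp upstream and replicate 2 gave 27.0 at 51 bp downstream. In all, 7 of 10 wrt genes had a summit in at least 1 relaxed list (70% beside 52.8% of all genes). The genes wrt-2, wrt-4 and wrt-6 had none.

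In the groundhog genes, 7 of 16 had a pooled summit (43.8% beside 36.7% of all genes). Peaks of grd-10 and grd-11 were found by both replicates (2 of 16, 12.5% beside 16.9%). The pooled summit of grd-10 lay 844 bp upstream with signal 71.4, inside a coding exon of grd-3, its neighbour in the same family. Replicate 1 gave 28.8 at 787 bp upstream, with a stronger summit of 35.1 at 988 bp upstream, and replicate 2 gave 39.1 at 844 bp upstream, with another of 40.3 at 28 bp upstream. The strongest summits of the replicates therefore lay in different places. For grd-11 the pooled summit lay 629 bp upstream with signal 66.4, and the replicates gave 27.7 at 608 bp and 35.6 at 678 bp upstream. Elsewhere in the family the highest pooled signals lay between 40.7 and 55.2. A pooled summit in the window of grd-4 lay in an intron of grd-14, and those of grd-8 in a coding exon of mig-6. In all, 8 of 16 grd genes had a summit in at least 1 relaxed list (50% beside 52.8% of all genes). The other 8 had none, among them grd-1, grd-2 and grd-3.

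The ground-like genes, the largest family here, had 1 replicated summit among 31 genes, 3.23% beside 16.9% of all genes. In the single lists, 9 had a pooled summit (29.0% beside 36.7%). Replicate 1 had a summit at 10 (32.3% beside 36.7%) and replicate 2 at 9 (29.0% beside 37.5%). The replicated one was that of grl-8. Its pooled summit lay 12 bp upstream with signal 66.5, replicate 1 gave 36.8 at 7 bp upstream and replicate 2 gave 25.9 at 5 bp downstream. These 3 summits were the most tightly placed of any replicated member, 12 bp separating the replicates. The highest pooled signal of the family was that of grl-17, 69.6 at 53 bp upstream, where replicate 1 gave 46.0 at 50 bp upstream and replicate 2 had no summit. A single summit (pooled signal 42.8, replicate 2 signal 22.6) lay between grl-29 and grl-30 and fell in the windows of both, so these genes share a count. In all, 16 of 31 grl genes had a summit in at least 1 relaxed list (51.6% beside 52.8% of all genes). The other 15 had none, among them grl-10, grl-11 and grl-12.

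The remaining ligand-related genes had weak or no peaks. For hog-1, which encodes a Hedgehog-type processing domain, the pooled signal was 45.4 at 891 bp upstream, replicate 1 gave 39.1 at 987 bp and replicate 2 gave 25.3 at 669 bp upstream. For qua-1, which is required for molting, replicate 1 gave 28.6 at 879 bp upstream, and neither replicate 2 nor the pooled list had a summit. Over the 59 ligand-related genes (wrt, grd, grl, qua-1 and hog-1), 1 had an IDR summit (1.69% beside 6.99% of all genes). Pooled summits were found for 21 (35.6% beside 36.7%) and replicated summits for 5 (8.47% beside 16.9%).

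The Patched-like and Dispatched-like genes had no IDR summit (0 of 28, which allows up to 10.7%, beside 6.99% of all genes). Of the 28, 9 had a pooled summit (32.1% beside 36.7%) and 2 a replicated summit (7.14% beside 16.9%). These shares were close to those of the ligand-related genes. For ptc-1, the Patched homologue needed for cytokinesis in the germ line, the pooled signal was 70.4 at 176 bp downstream of the start, in an intron. Replicate 1 gave 33.4 at 873 bp upstream, and replicate 2 gave 35.9 at 117 bp downstream and 22.4 at 754 bp upstream. The replicates thus placed their ptc-1 summits over 100 bp apart. No list had a summit for ptc-3, the other Patched homologue, for che-14, a Dispatched-like gene needed for apical secretion by epithelial cells, or for ptd-2.

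The patched-related family had weak peaks at counts near those of the ligand-related genes. Of 24 ptr genes, 8 had a pooled summit (33.3% beside 36.7% of all genes). Replicate 1 had a summit at 10 (41.7% beside 36.7%) and replicate 2 at 7 (29.2% beside 37.5%). Summits of both replicates lay within 100 bp of each other at ptr-8 and ptr-2 (8.33% beside 16.9%). For ptr-8 the pooled summit lay 400 bp upstream with signal 54.8, and the replicates gave 27.3 at 374 bp and 25.03 at 410 bp upstream. For ptr-2 it lay 57 bp downstream with signal 53.3, in a coding exon, and the replicates gave 24.2 at 49 bp and 28.8 at 23 bp downstream. Replicate 1 had a stronger ptr-2 summit of 37.3 at 901 bp upstream, near another pooled summit of 46.1 at 890 bp upstream. Replicate 2 had no summit there. All of these pooled values are low, ranked 14073 or below. The highest pooled signals of the family were those of ptr-24, 62.3 at 810 bp upstream, and ptr-21, 59.0 at 93 bp downstream. Replicate 1 gave 25.3 for ptr-24 at 719 bp and replicate 2 gave 41.2 at 838 bp upstream, whereas ptr-21 had 40.7 in replicate 1 and no summit in replicate 2. In all, 12 of 24 ptr genes had a summit in at least 1 relaxed list (50% beside 52.8% of all genes). The other 12 had none, among them ptr-10, ptr-11 and ptr-12.

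**Figure D3:**
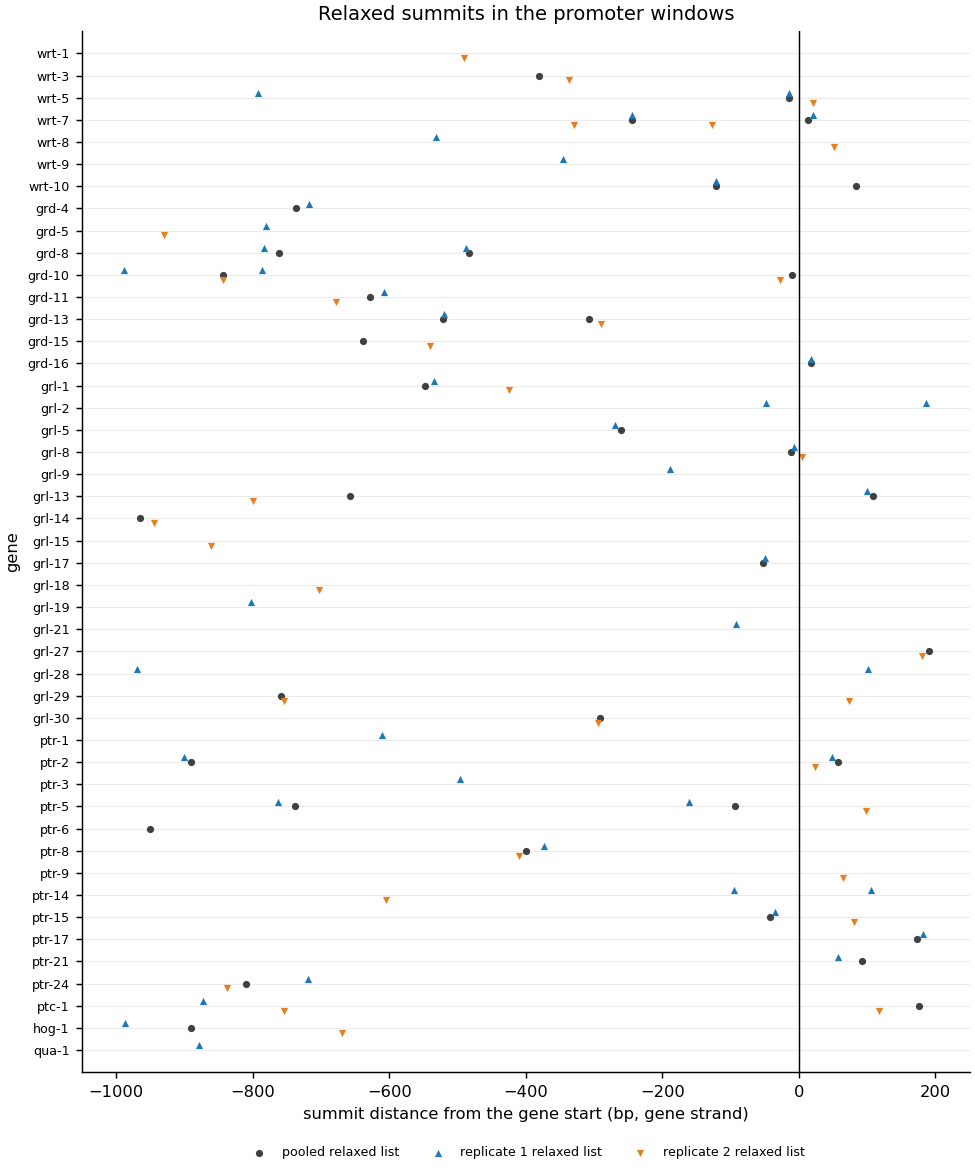
Summits of the pooled list (black circles), replicate 1 (blue upward triangles) and replicate 2 (orange downward triangles) in the promoter windows of the 46 members with a summit in any relaxed list; the x axis is the distance from the gene start in bp on the gene's strand. Symbols of both replicates lie within 100 bp of each other in 7 rows (wrt-5, wrt-7, grd-10, grd-11, grl-8, ptr-2 and ptr-8), and in most other rows they stand apart or 1 replicate is missing.

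Over all families, 46 of 87 members had a summit in at least 1 relaxed list, 52.9% beside 52.8% of all genes, and 41 had none. Of the 30 with a pooled summit, 15 had a summit of each replicate in the window, 8 of replicate 1 but not replicate 2, 6 of replicate 2 but not replicate 1, and ptr-6 of neither. A further 16 members had a replicate summit without a pooled one. The 37 distinct pooled summits lay in intergenic DNA for 20, in coding exons for 11, in introns for 4 and in noncoding parts of exons for 2. Of the 37, 3 also lay in the promoter window of another gene. These classes were not counted over all pooled summits, so the numbers only describe the members.

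**Figure D4:**
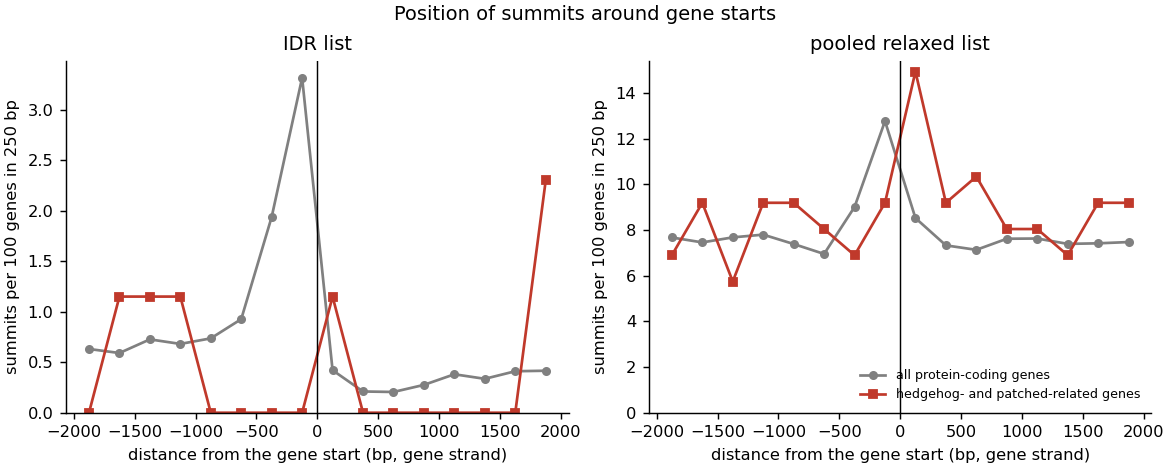
Summits per 100 genes in bins of 250 bp around the gene start (x axis, bp on the gene's strand; the line at 0 is the start) for all genes (grey circles) and the 87 members (red squares), in the IDR list (left) and the pooled relaxed list (right). All genes rise to 3.31 (IDR) and 12.8 (pooled) in the 250 bp before the start, where the members stand at 0 and 9.20; each red point in the left panel is 0, 1 or 2 peaks.

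In the bins next to the start the members' pooled summits were divided differently, on small counts that were not tested. The share of windows whose strongest pooled summit lay within 200 bp of the start was alike, 40% of members with a summit beside 40.6% of all genes with one. Over all genes, the pooled list had its most summits in the 250 bp before the start, 12.8 per 100 genes, and 8.53 in the 250 bp after it. Members had 9.20 and 14.9 per 100 genes in the same bins, from 8 and 13 summits. In the IDR list all genes had 3.31 per 100 genes before the start and members had 0 (0 of 87). Replicate 1 gave 12.6 per 100 members before the start, beside 12.4 per 100 of all genes, and 17.2 after it, beside 8.87. Replicate 2 gave 2.30 before the start, beside 12.8, and 11.5 after it, beside 8.61. Before the start, members were thus close to all genes in replicate 1 and below them in replicate 2. Both replicates thus had more member summits in the 250 bp after the start than in the 250 bp before it.

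IDR peaks of PAX-3 did occur near some members, outside the windows. Besides wrt-7, 6 members had an IDR summit within 2500 bp of the start. The share of all genes at that distance was not counted, so the number only describes these members. The strongest was 1918 bp downstream of the start of wrt-5, with pooled signal 738 (402 in replicate 1 and 334 in replicate 2), in the window of pcn-1, the replication clamp gene. The next lay 1487 bp upstream of grl-17, with signal 532 (294 and 239), in the window of slrp-1. Those near ptr-9 (1123 bp upstream, signal 198), wrt-1 (1685 bp upstream, 197) and grl-10 (1796 bp downstream, 187) lay in the windows of dgk-3, ZK1290.5 and a group of genes that includes the ribosomal protein genes rpl-39 and rps-30. Only the peak near ptr-1 (2270 bp upstream, 137) lay in no gene's window. It ranked 1676, close to the wrt-7 peak, with 93.2 in replicate 1 and 43.7 in replicate 2. So 5 of these 6 peaks lay in promoter windows of other genes. How often this holds for IDR peaks near any gene was not counted. With the window widened to 2000 bp upstream, 4 members had an IDR summit, 4.60% beside 9.20% of all genes. The share of members divided by the share of all genes moved from 0.164 to 0.4996. Over all members the median distance from the start to the nearest IDR summit was 22167 bp, beside 20184 bp for all genes.

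Inside the gene bodies IDR summits were again few, whereas relaxed summits were more frequent per kb than over all genes. The 1 IDR summit within a member body was the wrt-7 peak already counted in its window. That gave 0.00302 per kb beside 0.0106 per kb over all genes. Pooled relaxed summits were at 0.356 per kb in members and 0.295 per kb over all genes. The values were 0.386 and 0.298 in replicate 1, and 0.335 and 0.291 in replicate 2. A pooled summit lay in the body of 60 members, 69.0% beside 49.3%, and member bodies were longer, with a median of 2752 bp beside 2027 bp. The part of gene length in that share was not tested.

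Some properties of the windows differed between the members and all genes. The window of 10 members (11.5%) held the start of another protein-coding gene, beside 21.3% of all genes and 47.6% of genes with an IDR summit. Among windows without another start, the IDR share was 1.30% for members (1 of 77) beside 4.66% for all genes, a ratio of 0.279 in place of 0.164. In the same windows the replicated share was 9.09% beside 14.2%, a ratio of 0.640 in place of 0.476. The members stood below all genes in both, by less than over all windows. The median GC content of the window was 36.1% in members, 35.0% in all genes and 36.6% in genes with an IDR summit. Beside genes of like GC content (between the members' quartiles), the ratio was 0.148 for IDR summits and 0.447 for replicated summits. On chromosome III 0 of 7 members had a pooled summit (which allows up to 42.9%), beside 40.4% of all genes there. On the other chromosomes the members' share ran from 30.8% (X, beside 34.3% of all genes there) to 40.0% (chromosome I, beside 36.8%).

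Other genes with related roles gave shares near those of all genes in some lists. Of 15 genes related to Hedgehog signalling elsewhere or to sterol transport, 0 had an IDR summit. That count allows up to 20%, beside 6.99% of all genes. Replicate 1 had a summit at 7 (46.7% beside 36.7%) and replicate 2 at 8 (53.3% beside 37.5%). Pooled summits were found for 6 (40% beside 36.7%) and replicated summits for 3 (20% beside 16.9%). The replicated ones were lin-23, an F-box protein related to fly Slimb (pooled signal 112, replicates 45.1 and 79.9, 963 to 981 bp upstream), lon-2, a glypican (83.0, with 35.5 and 34.9 at 51 and 29 bp upstream), and kin-19, a casein kinase (43.2, with 24.4 and 22.1). The tra-1 gene, the homologue of the Gli transcription factors, had no summit in any list. Of 11 epidermal and molting regulators, myrf-1, a membrane-bound transcription factor, had an IDR summit 296 bp upstream of its start (signal 154). Replicate 1 gave 102 at 377 bp upstream and replicate 2 gave 50.03 at 276 bp upstream. These lay just over 100 bp apart, so myrf-1 narrowly missed being counted as replicated. It was the 1 gene of the 11 with an IDR summit (9.09% beside 6.99%). Of the 11, 2 had a pooled summit (18.2% beside 36.7%) and 0 had a replicated one (up to 27.3%, beside 16.9%). The other gene with a pooled summit was pax-3 itself, with pooled signal 40.1 at 165 bp downstream, close to the lowest signal of the list. Of the 11 regulators, replicate 1 had a summit at 4 (36.4% beside 36.7%) and replicate 2 at 5 (45.5% beside 37.5%).

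Motif matches in the member windows were above those of all genes for some motifs and below for others, and the differences were not tested. On either strand, GTCACG, the core of a paired-domain site, was in 15 of 87 member windows, 17.2% beside 18.8% of all windows of the same length. The homeodomain motif TAATTA was in 55.2% beside 47.3%, the GATA motif TGATAA in 63.2% beside 72.0%, and the nuclear receptor motif AGGTCA in 33.3% beside 26.7%. In the 100 bp around the 37 member summits, GTCACG occurred at 1 (2.70%), beside 2.46% of all pooled summits and 5.33% of IDR summits. TAATTA occurred at 0 (up to 8.11%), beside 3.54%, TGATAA at 2 (5.41%) beside 9.18%, and AGGTCA at 1 (2.70%) beside 2.61%. The AGGTCA match is that of ptr-15 and a TGATAA match that of grl-5, both shown above, and neither peak was replicated. The sequences shown for wrt-7, grd-10, grl-8, grd-11, ptr-8 and wrt-5 hold none of the 4 motifs, which says only that these letters are not in those stretches.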

How the data were processed

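PAX-3-GFP ChIP-seq peaks were taken from the lists that the authors deposited in narrowPeak layout on build ce11, per the file headers and labels: an IDR list, a pooled list and 1 list per replicate. The deposited peak signal and the deposited −log10 q-value were used as given, and the third value used, the summit offset, set each peak's position. No aligner, peak caller, control or IDR threshold is named in the sources used here. Gene starts came from Ensembl release 115 (WBcel235, the same assembly) and bases from RefSeq. Summits were counted in each window with Python 3.11.15, numpy 2.4.6, pandas 2.3.3, scipy 1.17.1 and matplotlib 3.10.9. On simulated data, 400 of 400 planted window summits were found among 19973 genes. Members and gene lists were chosen with earlier results of these data known, so shares are set beside those of all genes with no test. Named are members with an IDR summit, those replicated within 100 bp, the 2 of highest pooled signal per family and ptc-1, ptc-3, qua-1, hog-1, che-14, ptd-2 and wrt-7; wrt-8, wrt-10, grd-4, grd-8, grl-29, grl-30, ptr-6, ptr-15 and grl-5 were named after their values were seen. Shares have Wilson intervals, and a count of 0 allows up to 3 counts. Both samples form 1 group, and nothing here measures variation between groups. Alternatives changed the window, the hit rule, the peaks kept, the shared distance, the background and the replicates used.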

Additional observations from a re-analysis of the deposited data

How the results depend on the processing

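Of 45 alternatives, 29 left a count within 1.5 times its value or a ratio within its 95% counting interval, which is wide for the IDR ratio, and 16 did not. The IDR count of 1 became 4 with 2000 bp upstream, 2 with peak overlap in place of the summit and 0 among IDR peaks above the median signal, and it ranged from 0 to 1 with a single replicate's peaks of matched number. With the 10000 strongest peaks, counts became 7 (pooled, ratio 0.458), 13 (replicate 1), 9 (replicate 2) and 0 (replicated, beside 10.01% of all genes). With 500 bp upstream, replicate 1 gave 22 and replicate 2 gave 18, and with 2000 bp replicate 2 gave 44. The replicated count of 7 became 17 with 2000 bp, 18 with peak overlap, 4 within 50 bp and 12 within 200 bp. Wider windows or distances admit more summits by construction. Ratios of the members' share to that of all genes, worked out for IDR and replicated peaks after the data were seen, ran from 0.148 to 0.4996 (IDR, 2000 bp upstream the highest) and from 0.347 to 0.808 (replicated), apart from the settings above whose count is 0. For the pooled list it ran from 0.458 to 1.06, and it was 0.858 in replicate 2 and 1.10 in replicate 1. No paired analysis was possible because there is 1 group. With 87 genes, shares of a few percent rest on single genes.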
